A study of Mus musculus and Homo sapiens with 27 samples.

Results

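The genes described here encode chains of the antibody molecule and a chaperone of its assembly. They were chosen by name: Jchain, Iglv1 and Mzb1 among the 331 named genes of the mouse array, and JCHAIN, IGHM, IGHA1 and MZB1 among the 4604 named genes of the human array. These 7 genes were read by 4 mouse features (1 for Jchain, 2 for Iglv1 and 1 for Mzb1) and by 22 human features (5 for JCHAIN, 6 for IGHM, 8 for IGHA1 and 3 for MZB1). A feature is a spotted cDNA of the lymphochip, a 2-colour array of genes expressed in lymphocytes, and every feature of the 7 genes had a value on every array.

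The mouse arrays compared splenic B cells of adult Balb-c mice that lacked Irf4 (IRF4 homozygous -/-, here KO) with cells that carried a null allele beside a normal allele (IRF4 heterozygous -/+, here Het). The Het cells were the controls, and wild-type cells were not analysed here. Cells grown in RPMI with serum were untreated (0 h: Het n = 3, KO n = 3) or treated with lipopolysaccharide (LPS, a coat component of bacteria that activates B cells in culture) for 24 h (Het n = 2, KO n = 3), 48 h (Het n = 2, KO n = 3) or 96 h (Het n = 4, KO n = 3). The labels give the LPS dose as 20 to 25 mg/ml. Each of the 23 arrays set B-cell RNA (Cy5) against a common reference pool (Cy3) of B-cell, T-cell and macrophage lines, plasmacytomas among them. The 4 human arrays set OCI-Ly7, a line of diffuse large B-cell lymphoma, carrying an IRF4 vector (Cy5) against OCI-Ly7 carrying an empty vector (Cy3), at day 2 (n = 1), day 3 (n = 2) and day 5 (n = 1). The labels name this empty vector, whereas the design text speaks of non-transduced control cells, so which of them the human ratios compare with is not settled; the labels were followed. The series' design text calls the repeats biological, but neither it nor the labels say that they came from separate animals or cultures, so p-values measure the spread between these arrays.

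An antibody is built from heavy and light chains. IGHM and IGHA1 encode constant regions of the heavy chains of IgM and IgA, and Iglv1 encodes a variable segment of the lambda light chain. Jchain encodes the joining chain, which links IgM units into pentamers and IgA units into dimers and is needed for their transport across epithelia. Mzb1 encodes a co-chaperone of the endoplasmic reticulum (ER) that helps heavy and light chains to fold and assemble. B cells make membrane antibody at a low rate, and plasma cells secrete it at a high rate. IRF4 is a transcription factor that plasma cell differentiation and class switching need, and IRF factors bind DNA through a GAAA core, often in pairs or beside an ETS site.

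The sequence upstream of the start of Jchain is shown, the mouse member for which such a sequence was available. It is the 250 bases before the RefSeq start of the gene on the minus strand (GRCm38.p6, chr5:88527898-88528147), written 5′ to 3′ along the gene, with matches to GAAA on either strand in capitals. Of the 3 mouse members, 1 was matched in the RefSeq promoter table.
Jchain: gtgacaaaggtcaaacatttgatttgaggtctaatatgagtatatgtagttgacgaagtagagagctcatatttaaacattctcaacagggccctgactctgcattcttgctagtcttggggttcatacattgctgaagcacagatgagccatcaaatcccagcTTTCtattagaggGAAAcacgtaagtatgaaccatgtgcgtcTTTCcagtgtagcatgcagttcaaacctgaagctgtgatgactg
GAAA matched 3 times, at position -73 on the gene's strand and at positions -86 and -44 on the other, counted from the start. At least 1 such match lay in 86.4% of the 32851 promoters of the same length, so GAAA alone sets no promoter apart. GAAANNGAAA, a pair of cores, and GGAANNGAAA, a core beside an ETS half-site, both of which contain GAAA, were searched on both strands and had 0 matches in this window. They were present in 2.98% and 2.30% of promoters. The matches are a description of these letters, and binding was not measured on these arrays.

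All values are log2 ratios with each array centred on its median, so 0 on a mouse array is the level at which a gene stood to the pool as the median feature did. Direction was taken as Cy5 over Cy3. No named mouse feature read Irf4, so the deletion itself could not be checked. Cd79b, the B-cell marker measured of 13 listed, lay above the pool on 23 of 23 arrays, and the T-cell marker Cd3g lay below it on 23 of 23. Of the 3 named genes of the myeloid list, Cybb, which B cells also express, lay above the pool on 23 of 23 arrays, Ncf1 on 21 and Tyrobp on 12. The title of 3 KO arrays (24 h replicate 3, 48 h replicates 1 and 3) says KO while their channel fields say Het, and the title was followed. In 3 arrays (Het 0 h replicates 1 and 2, Het 24 h replicate 1) 14.5 to 18.6% of all features lay below -4, against 0.236 to 12.2% on the other 20. These 3 are among the 5 arrays with the lowest of the authors' database numbers, and all 96 h arrays lie in the highest range of those numbers. Genotypes were compared with limma across all 331 genes, and a gene was called where its Benjamini-Hochberg adjusted p was under 0.05. B-cell cultures are mixtures, so fewer cells of a type and less RNA per cell cannot be told apart.

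Jchain was lower in KO than in Het at every time, and at 96 h of LPS the difference was 170-fold. At 96 h the 4 Het arrays read 3.78, 4.18, 4.09 and 4.15, and the 3 KO arrays read -3.53, -2.95 and -3.60. The Het arrays averaged 4.05 ± 0.18 (SD, n = 4), 16.5-fold above the pool, and the KO arrays -3.36 ± 0.36 (SD, n = 3), 10.3-fold below it. No array of either genotype came near the other, and a gap of 6.73 separated the lowest Het array from the highest KO array. The difference was -7.41 ± 1.17 (SE, 95% interval -9.87 to -4.94, limma adjusted p = 0.000495). At this time 9 of the 331 genes (2.72%) were called in either direction, and 42 (12.7%) had every KO array below every Het array. Among the 3 mouse members, Jchain and Iglv1 were called and all 3 had their groups apart in this way. Jchain had the lowest difference of the 331 genes, Iglv1 ranked 8 from the bottom and Mzb1 22.

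Jchain already differed between the genotypes before LPS. The untreated Het arrays read 1.83, 2.65 and 1.45, and the untreated KO arrays -2.66, -10.27 and -3.46. Every Het array lay above the pool and every KO array below it, with a gap of 4.11 between the groups. A single KO array, replicate 2, lay far under the others, on an array where 8.99% of all features lay below -4. The difference was -7.44 ± 1.25 (SE, 95% interval -10.07 to -4.80, limma adjusted p = 0.00431). Without KO 0 h replicate 2 it was -5.04, with an adjusted p of 9.18e-05. The call was lost without the 5 arrays of the lowest database range (-8.32, adjusted p = 0.0509), which leaves 1 Het array at 0 h and assumes that it varies like the other groups. It was also lost with only the 0 h arrays fitted (adjusted p = 0.800) and with p adjusted over all 12292 features (0.0551). At 0 h 6 of 331 genes (1.81%) were called, and 12 (3.63%) had every KO array below every Het array, and Jchain was the member with both.

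At the middle times Jchain in Het stood closer to KO. At 24 h the Het arrays read -0.55 and -2.02 and the KO arrays -2.59, -4.98 and -2.98. At 48 h the Het arrays read 0.89 and -0.35 and the KO arrays -3.99, -3.87 and -3.92. The groups did not overlap at either time, with gaps of 0.57 at 24 h and 3.51 at 48 h, but with 2 Het arrays each the tests were weak. The difference was -2.23 ± 1.40 (SE, 95% interval -5.17 to 0.72, limma adjusted p = 0.425) at 24 h. It was -4.19 ± 1.40 (SE, limma adjusted p = 0.997, unadjusted p = 0.00784) at 48 h, an 18.3-fold difference that was called (adjusted p = 0.0473) with only the 48 h arrays fitted. Jchain was the 1 gene of 331 called in that fit. At 24 h and at 48 h limma called 0 of 331 genes (0%), with 31 and 9 genes at an unadjusted p under 0.05. Every KO array lay below every Het array for 64 genes (19.3%) at 24 h and for 73 genes (22.1%) at 48 h, which with so few arrays is common. The 3 arrays with conflicting labels read -2.98, -3.99 and -3.92, beside the KO arrays whose labels all say KO. Counted as Het, they would end the gaps at 24 h and at 48 h.

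Averaged over 24, 48 and 96 h, Jchain was 24.4-fold lower in KO, by -4.61 ± 0.77 (SE, limma adjusted p = 0.00251). Of the 331 genes 8 (2.42%) were called in this comparison, and Jchain was the member among them. The call was lost with the 3 conflicting arrays counted as Het (-3.79, adjusted p = 0.0900). Over all times together, the lowest of the 11 Het arrays (-2.02) lay above the highest of the 12 KO arrays (-2.59). Of the 331 genes 1 (0.302%) had all Het arrays above all KO arrays in this way, Jchain itself. This rests on the titles of the 3 conflicting arrays. Counted as Het, they would lie below the highest KO array and end the separation.

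**Figure D1:**
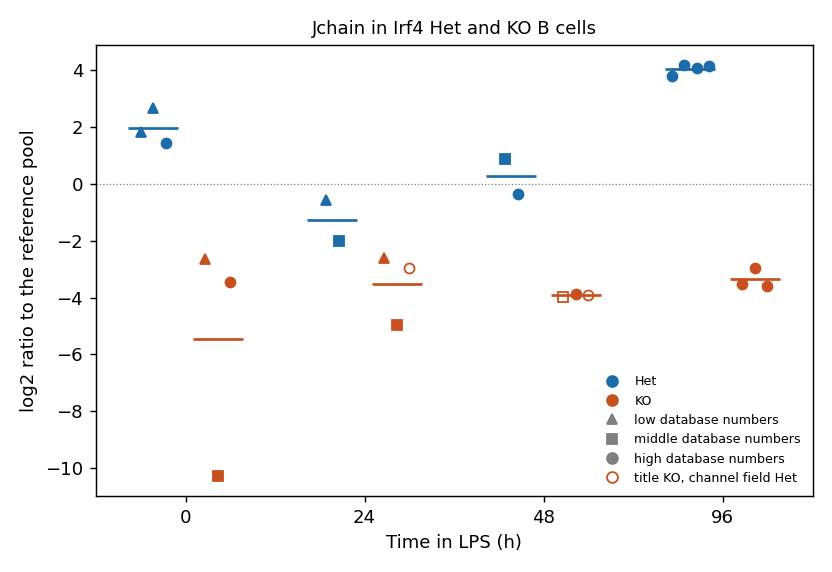
Jchain on each mouse array. The y axis is the centred log2 ratio to the reference pool, the x axis the time in LPS (h); blue points are Het and orange points KO arrays, a line is the group mean, the shape gives the range of the authors' database number, and open points are the 3 arrays with conflicting labels. Het arrays stand at 1.45 to 2.65 at 0 h, at -2.02 and -0.55 at 24 h and at 3.78 to 4.18 at 96 h, while KO arrays stay at or below -2.59.

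The course of Jchain over time differed in appearance between the genotypes. In Het its means ran 1.98 ± 0.62 (SD, n = 3), -1.29 ± 1.04 (SD, n = 2), 0.27 ± 0.88 (SD, n = 2) and 4.05 ± 0.18 (SD, n = 4) from 0 h to 96 h, and no 2 neighbours in the order of these levels overlapped. In KO they ran -5.46 ± 4.18, -3.52 ± 1.28, -3.93 ± 0.06 and -3.36 ± 0.36 (SD, n = 3 each), and neighbours in that order overlapped throughout. Het at 24 h, the lowest Het group, still lay above KO at 96 h, the highest KO group, without overlap. How many other genes have their Het times apart was not counted, and groups of so few arrays often lie apart.

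Tests of these steps share groups, so they are not independent of one another or of the genotype comparisons. In Het, Jchain differed from 0 h by -3.27 ± 1.40 (SE, limma adjusted p = 0.121) at 24 h, by -1.71 (adjusted p = 0.470) at 48 h and, at 96 h, by 2.07 ± 1.17 (SE, adjusted p = 0.185). None passed, where 44 (13.3%), 28 (8.46%) and 85 (25.7%) of the 331 genes did. From 24 h to 96 h, a step chosen after its values were seen, Jchain rose 40.4-fold in Het, by 5.34 ± 1.33 (SE, limma adjusted p = 0.00693). In this step 100 of 331 genes (30.2%) were called. Without Het 24 h replicate 1 the rise was 6.07 and its adjusted p 0.0543.

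In KO the same step gave 0.16 ± 1.25 (SE, 95% interval -2.48 to 2.79, limma adjusted p = 0.975), with 21 of 331 genes (6.34%) called. The difference of the 2 steps was -5.18 ± 1.83 (SE, limma adjusted p = 0.572, unadjusted p = 0.0110), which did not pass, and 1 of 331 genes (0.302%) did. It was called after quantile normalization (-7.21, adjusted p = 0.0121) and with only these 4 groups fitted (adjusted p = 0.0160). These settings called 5 and 2 of the 331 genes. Against 0 h, Jchain in KO differed by 1.95 (adjusted p = 0.565) at 24 h, by 1.54 (adjusted p = 0.860) at 48 h and, at 96 h, by 2.10 ± 1.25 (SE, adjusted p = 0.320). Of the 331 genes 5 (1.51%), 5 (1.51%) and 3 (0.906%) were called in these comparisons. Without KO 0 h replicate 2 the last value was -0.30. The 96 h responses from 0 h differed between the genotypes by 0.03 ± 1.72 (SE, limma adjusted p = 0.997), where 0 of 331 genes (0%) were called and 42 had an unadjusted p under 0.05.

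Iglv1, the lambda light chain segment, was 4.94-fold lower in KO at 96 h and was not called at the other times. Both of its features may also detect related lambda segments, which was not tested. On its first feature the 96 h Het arrays read 2.26, 2.89, 2.86 and 2.73 and the KO arrays 1.03, 0.96 and 1.27. On its second the Het arrays read 3.97, 4.85, 4.46 and 4.68 and the KO arrays 1.92, 1.61 and 0.91. The genotypes did not overlap on either feature, and all 7 arrays lay above the pool. The mean of both features was 3.59 ± 0.33 (SD, n = 4) over the Het arrays and 1.28 ± 0.19 (SD, n = 3) over the KO arrays, with a gap of 1.64 between the groups.

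The Iglv1 difference at 96 h was -2.30 ± 0.58 (SE, limma adjusted p = 0.0345), -1.60 on the first feature and -3.01 on the second. Leaving out Het 96 h replicate 2, 3 or 4, or any KO array of that time, ended the call, with values between -2.46 and -2.21 over all single omissions and the highest adjusted p at 0.163. So did a fit with the conflicting arrays left out (adjusted p = 0.0851) or counted as Het (adjusted p = 0.0503).

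At the other times the Iglv1 genotypes lay close. At 0 h the first feature read 3.47, 3.36 and 1.63 in Het and 3.24, 2.13 and 1.53 in KO, and the second 2.90, -4.41 and 2.37 in Het and 1.93, 3.06 and 2.01 in KO. The groups overlapped on both features, and the value of -4.41 came from Het 0 h replicate 2, where 17.3% of all features lay below -4. At 24 h the first feature read 2.77 and 2.15 in Het against 2.95, 1.74 and 1.36 in KO, and at 48 h 2.48 and 1.64 against 2.00, 1.42 and 1.44. The second read 0.99 and 2.56 against 0.14, 1.90 and 1.03 at 24 h and 3.38 and 2.46 against 2.20, 1.38 and 1.33 at 48 h. On the mean of both features the difference was 0.76 ± 0.61 (SE, limma adjusted p = 0.529) at 0 h, -0.59 (0.644) at 24 h and -0.86 (0.997) at 48 h. Averaged over the LPS times it was -1.25 ± 0.38 (SE, limma adjusted p = 0.103), and it was called with only the LPS groups fitted (adjusted p = 0.00137). That fit called 16 of the 331 genes, against 8 with all arrays.

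Over time in Het, Iglv1 rose by 2.03 ± 0.58 (SE, limma adjusted p = 0.0192) from 0 h to 96 h on the mean of its features. Of the 331 genes 85 (25.7%) were called in this comparison. The Iglv1 rise rests on the low value of a single array: without Het 0 h replicate 2 it was 1.00 (adjusted p = 0.104). The features did not move alike, with -0.14 on the first and a higher level by 4.20 on the second. In KO the same comparison gave -1.03 ± 0.61 (SE, limma adjusted p = 0.320). The responses differed between the genotypes by -3.07 ± 0.84 (SE, limma adjusted p = 0.0881), by -2.03 (adjusted p = 0.0689) without Het 0 h replicate 2, by -3.88 (adjusted p = 0.0150) without replicate 1 and by -3.29 (adjusted p = 0.0309) without replicate 3. It passed after quantile normalization (-2.89, adjusted p = 0.00945), where 14 of the 331 genes passed. Without Het 0 h replicate 1 and without replicate 3, 13 and 30 of the 331 genes passed. From 24 h to 96 h, Iglv1 differed by 1.47 (adjusted p = 0.101) in Het. Across the 23 arrays the features correlated with r = 0.0023, and with r = 0.417 without Het 0 h replicate 2; the arrays share the pool, so this is a description.

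Mzb1, the assembly co-chaperone, was 2.47-fold lower in KO at 96 h on average, and this difference did not pass in the fit of all arrays. The 96 h Het arrays read 0.49, 1.03, 1.22 and 1.51, and the KO arrays -0.11, -0.40 and -0.21. All Het arrays lay above the pool and all KO arrays below it, with a gap of 0.60. At 48 h the Het arrays read 1.00 and 0.44 and the KO arrays 0.38, 0.00 and -0.08, with a gap of 0.06 between the groups. The difference was -1.30 ± 1.60 (SE, limma adjusted p = 0.993) at 96 h and -0.62 (adjusted p = 0.997) at 48 h. The fit shares a single spread over all groups, and Mzb1 spread by 4.27 (SD) in Het at 0 h and by 0.14 in KO at 96 h. With only the 96 h arrays fitted the same difference had an adjusted p of 0.0261, where 25 of the 331 genes were called. Without the lowest database range the difference stayed at -1.30.

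That spread came from 3 arrays. At 0 h Mzb1 read -4.56, -8.60 and -0.07 in Het and 1.01, -0.05 and 0.36 in KO. At 24 h it read -9.19 and -0.31 in Het and -0.81, -0.01 and -0.46 in KO. The 3 values below -4 are those of Het 0 h replicates 1 and 2 and Het 24 h replicate 1, the same arrays that held the largest shares of features below -4, and the remaining 20 arrays lay between -0.81 and 1.51. The part of those arrays in the results was not tested beyond leaving them out.

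With all arrays, Mzb1 was higher in KO by 4.85 ± 1.71 (SE, limma adjusted p = 0.149) at 0 h. At 24 h it was higher by 4.32 ± 1.91 (SE, limma adjusted p = 0.420), and neither difference was called. Single Het arrays decided both values. At 0 h the value was 7.02 without Het 0 h replicate 3 (adjusted p = 0.00707, called) and 2.76 without replicate 2 (adjusted p = 0.661), and 0.23 without the lowest database range, which leaves 1 Het array. Without replicate 3, 57 of the 331 genes were called at 0 h. At 24 h the Mzb1 value was 8.77 without Het 24 h replicate 2 and -0.12 without replicate 1, and each of these fits leaves 1 Het array. In Het, Mzb1 rose by 5.47 ± 1.60 (SE, limma adjusted p = 0.0201) from 0 h to 96 h. Of the 331 genes 85 (25.7%) were called there. The same comparison gave 1.14 (adjusted p = 0.101) without the lowest database range, with 1 Het array left at 0 h, 5.40 (adjusted p = 0.0582) without Het 0 h replicate 1 and 3.38 (adjusted p = 0.154) without Het 0 h replicate 2. From 24 h to 96 h Mzb1 rose by 5.81 ± 1.81 (SE, limma adjusted p = 0.0238), where 100 of the 331 genes (30.2%) were called. The rise was 1.37 without Het 24 h replicate 1, which leaves 1 Het array at 24 h. In KO, Mzb1 differed by -0.68 (limma adjusted p = 0.842) from 0 h to 96 h, and the responses differed by -6.16 ± 2.34 (SE, adjusted p = 0.226).

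**Figure D2:**
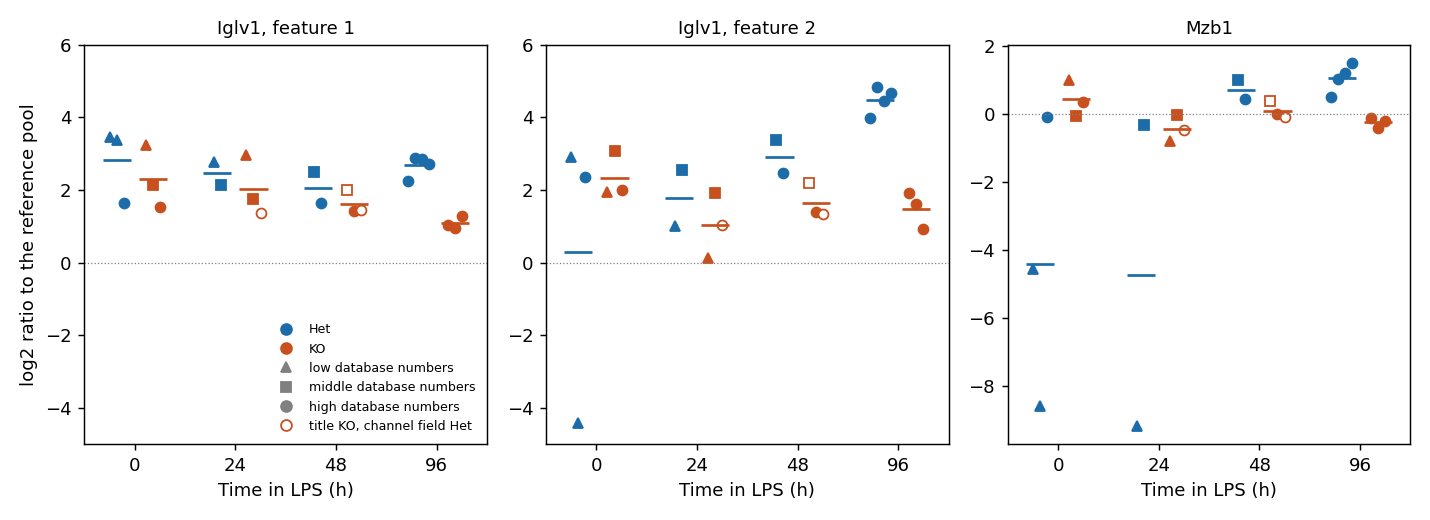
The 2 features of Iglv1 and the feature of Mzb1 on each mouse array, as centred log2 ratio to the reference pool (y) against time in LPS in h (x), with a scale of its own for Mzb1. Blue points are Het, orange points KO, lines are group means and shapes the range of the authors' database number. At 96 h all Het arrays lie above all KO arrays in each panel; the Mzb1 values of -4.56, -8.60 and -9.19 and the Iglv1 value of -4.41 belong to arrays of the lowest range.

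**Figure D3:**
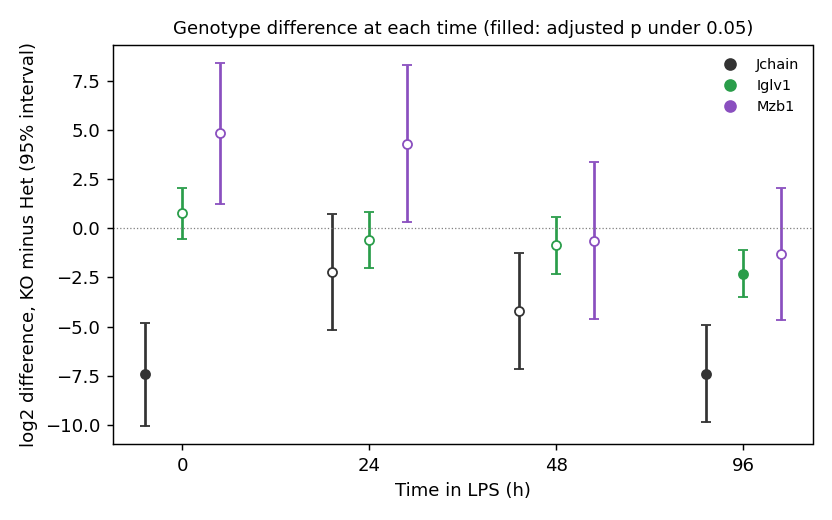
KO minus Het log2 difference (y) of Jchain, Iglv1 and Mzb1 at each time in LPS in h (x) with its 95% interval from limma; filled points have an adjusted p under 0.05. Jchain is filled at 0 h (-7.44) and 96 h (-7.41) and Iglv1 at 96 h (-2.30), and the Mzb1 intervals are wide at every time.

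The other steps of antibody production were followed through fewer named genes. Of 46 listed ER genes of antibody assembly, which carry chains into the ER, fold them, join their disulphides and remove misfolded ones, 10 were named on the mouse array. At 96 h 9 of the 10 were lower in KO and 0 were called, with a median of -0.90 against -0.07 over all 331 genes. The lowest p values were those of Dnajc3, an ER co-chaperone (-1.07 ± 0.29 SE, limma adjusted p = 0.0646), and Sel1l, part of the machinery that removes misfolded chains (-1.14 ± 0.37 SE, adjusted p = 0.159). The mean level of the 10 genes was -0.19 to 0.44 on the Het arrays and -0.63 to -0.59 on the KO arrays, without overlap.

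At 48 h 10 of 10 ER genes were lower in KO, 0 of them called, with a median of -0.40 against -0.08. At 24 h 7 of 10 were lower, with a median of -0.40 that did not lie below that of all genes, -0.49. At 0 h 7 of 10 were lower, with a median of -0.55 against -0.10. Averaged over the LPS times, Dnajc3 was called, at -0.78 ± 0.19 (SE, limma adjusted p = 0.0328), and 8 of the 10 were lower, with a median of -0.51 against -0.18. In Het from 0 h to 96 h 0 of 10 were called (7 higher, median 0.21 against -0.42), and in KO 0 of 10 (2 higher, median -0.52 against -0.60). From 24 h to 96 h Edem1, which directs misfolded glycoproteins to degradation, was called higher in Het, by 4.87 ± 1.41 (SE, limma adjusted p = 0.0167). That step was chosen after its values were seen, and 100 of the 331 genes (30.2%) were called in it. Of the 2 Het arrays at 24 h, replicate 1 had 18.6% of all features below -4, and its part in the Edem1 value was not tested. Other scalings, added after the values were seen, moved these counts. Centred on the named features in place of all features, the median of all 331 genes moved from -0.07 to 0.08 at 96 h and from -0.49 to 0.01 at 24 h. The ER genes then had 9 of 10 lower at 96 h (median -0.76), 8 of 10 at 48 h (median -0.25), 7 of 10 at 0 h (median -0.39) and 5 of 10 at 24 h, where the median turned to 0.10. After quantile normalization 10 of 10 were lower at 96 h and at 48 h, with medians of -1.26 and -0.54. At 96 h Dnajc3 and Sel1l were called lower with the first of these scalings, and Dnajc3 and Prdx4, an ER peroxiredoxin, with the second, where 14 and 18 of all 331 genes were called. The Dnajc3 call over the LPS times was lost with the first and kept with the second. From 0 h to 96 h in Het the first called 4 of 10 higher (Dnajc3, Pdia3, Ppib and Sel1l; 9 higher, median 0.83) and the second none, where 93 (54 higher) and 54 (21 higher) of all 331 genes were called.

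Of 26 listed regulators of antibody genes, 7 were named on the mouse array. At 96 h 6 of them were lower in KO and 0 were called, with a median of -0.65. Xbp1, the factor that expands the secretory apparatus, differed by -1.36 ± 0.47 (SE, limma adjusted p = 0.184), and Ell2, an elongation factor that favours the secreted form of heavy chain RNA, by -1.74 ± 0.76 (SE, adjusted p = 0.462). In Het from 0 h to 96 h Ell2 rose by 2.53 ± 0.76 (SE, limma adjusted p = 0.0218). Xbp1 rose as well, by 1.40 ± 0.47 (SE, limma adjusted p = 0.0345), and Ets1 fell by 2.25 ± 0.55 (SE, adjusted p = 0.0104). In KO 0 of the 7 were called in that comparison, where 3 of all 331 genes were called against 85 in Het. With only the Het arrays of 0 h and 96 h fitted, no gene was called higher, so the Ell2 and Xbp1 calls were lost. Het 0 h replicates 1 and 2 had 14.5 and 17.3% of all features below -4. Their part in these values was not tested. The responses of Xbp1 and Ell2 differed between the genotypes by -1.99 ± 0.68 (SE, limma adjusted p = 0.178) and -3.05 ± 1.12 (SE, adjusted p = 0.219), neither called. After quantile normalization Xbp1 was called lower in KO at 96 h and over the LPS times, where 18 and 16 of 331 genes were called, and its responses from 0 h were called different. For those responses 14 of 331 genes were called. From 0 h to 96 h that normalization kept the Het call of Ell2 but not those of Xbp1 and Ets1. It called Xbp1 in KO, where 70 of the 331 genes were called, 68 of them lower. None of the listed other immunoglobulin genes was a named mouse feature.

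No named marker of B, T, NK or myeloid cells was called between the genotypes at 96 h with arrays centred on their median. Of 16 listed myeloid markers 3 were named (Cybb, Ncf1 and Tyrobp), and their mean level was 0.73 to 1.62 on Het and 1.76 to 1.96 on KO arrays, without overlap and with 0 of 3 called. Tyrobp, a signalling adaptor of myeloid and NK cells, was higher in KO by 1.48 ± 0.58 (SE, limma adjusted p = 0.359, unadjusted p = 0.0206), and it was called higher after quantile normalization. Of 19 T-cell and NK-cell markers Cd3g was named, and it differed by 1.18 ± 0.97 (SE, limma adjusted p = 0.993). Of 9 plasma cell markers 5 were named, with a mean level of -0.34 to 0.04 on Het and -0.56 to -0.16 on KO arrays, which overlapped. That mean joins genes that differed in opposite directions, none of them called: Slpi by 1.74 and Sdc1 by 1.26, against Ell2 by -1.74, Xbp1 by -1.36 and Prdm1 by -0.91. From 0 h to 96 h in KO Slpi was called higher, 1 of the 3 genes called of 331. It was the only gene called higher there. Leaving out KO 0 h replicate 1 or 2, or any KO array of 96 h, left no gene called higher, so the Slpi call was lost. Cd79b differed by -0.42 ± 0.36 (SE, adjusted p = 0.993). The part of cell make-up in the Jchain, Iglv1 and Mzb1 values was not tested.

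Across the 23 arrays the 3 mouse members did not follow each other closely. Pearson's r was 0.412 between Jchain and Iglv1 (Spearman's rho 0.532), 0.459 between Iglv1 and Mzb1 (rho 0.643) and -0.124 between Jchain and Mzb1 (rho 0.239). The genes most like Jchain were Socs2 (r = 0.836, rho = 0.815), Ints7 (r = 0.812, rho = 0.817) and Dnajc3 (r = 0.773, rho = 0.780). Those most like Iglv1 were Xbp1 (r = 0.790, rho = 0.684), Med9 (r = 0.752, rho = 0.741) and Tmed10 (r = 0.682, rho = 0.623). Mzb1 was closest to Fxyd5 (r = 0.923, rho = 0.755), Casp4 (r = 0.920, rho = 0.522) and Slc35a2 (r = 0.905, rho = 0.698). These are descriptions over arrays that share the pool and the groups. The rho of each Mzb1 partner was lower than its r, and the 3 very low Mzb1 arrays are among the points.

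In OCI-Ly7, JCHAIN was the member that stood highest with the IRF4 vector, 5.65-fold above the empty vector on average. This direction rests on Cy5 over Cy3, which the sources used here do not state for the ratio. The 4 features of IRF4 itself did not settle it: their mean was -0.29, 0.67, -0.17 and -0.32 on the day 2, day 3 replicate 1, day 3 replicate 2 and day 5 arrays, 7 of 16 values lay above 0, and 1 feature was above 0 on 4 of 4 arrays, at 0.69 ± 0.12 (SD). With the opposite direction every sign below would turn.

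In the same order of arrays, the mean of the 5 JCHAIN features was 1.60, 3.42, 1.87 and 3.09. All 4 arrays lay well above 0, with day 3 replicate 1 and day 5 the highest. The mean was 2.50 ± 0.40 (SE, 95% interval 1.53 to 3.47, n = 4, limma adjusted p = 0.102, unadjusted p = 0.000709), which did not pass over the 4604 genes. Of these genes 5 (0.109%) passed in either direction, and JCHAIN was the 8th highest by mean. With only the 2 day 3 arrays fitted it was 2.65 (adjusted p = 0.00146), and after quantile normalization 2.30 (adjusted p = 0.0300). The first setting called 196 and the second 161 of the 4604 genes, against 5 in the fit above. By array order as above, its first feature read 1.17, 5.06, 2.39 and 5.09, and its second 2.44, 3.02, 2.44 and 2.78. The third read 1.13, 2.48, 1.32 and 2.26, the fourth 1.10, 3.08, 1.03 and 2.60, and the fifth 2.18, 3.48, 2.19 and 2.73.

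All 20 JCHAIN values were above 0, between 1.03 and 5.09. Of the 339 human genes with 5 or more features, 9 (2.65%) had every value above 0. The feature means ran from 1.80 to 3.43, and the first feature had the widest spread between arrays. The days have 1 or 2 arrays each, and the day 3 replicates differed by more than day 2 did from day 3 replicate 2, so no course over days was read.

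The heavy chain genes moved less. IGHA1, for the IgA heavy chain, gave means of 0.54, 0.19, 0.60 and 1.08 over its 8 features, all above 0. Its mean was 0.60 ± 0.28 (SE, 95% interval -0.07 to 1.28, limma adjusted p = 0.239), 1.52-fold. Gene means above 0 on 4 of 4 arrays were found for 782 of 4604 genes (17.0%), JCHAIN and IGHA1 among them, so this is common on these arrays. Its features were uneven, with means from 0.11 to 1.42, and 23 of its 32 values lay above 0, between -1.66 and 2.34. They may also detect IGHA2, a near-identical gene, which was not tested.

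IGHM, for the IgM heavy chain, gave means of 0.16, -0.03, 0.20 and 0.27 over its 6 features. Its mean was 0.15 ± 0.25 (SE, 95% interval -0.46 to 0.76, limma adjusted p = 0.708), an interval that leaves out changes of the size of the JCHAIN mean. Its single features spread from -2.88 to 2.20, with 15 of 24 values above 0, and their means were 0.68, -0.57, 0.44, 0.75, 0.18 and -0.58. The sign of the IGHM mean changed with centring, to -0.042 without it and -0.053 after quantile normalization.

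MZB1, the co-chaperone, gave means of -0.50, 0.34, -0.56 and -0.19 over its 3 features, with a mean of -0.23 ± 0.28 (SE, 95% interval -0.92 to 0.47, limma adjusted p = 0.620). The features disagreed. The first was above 0 on 4 of 4 arrays, with a mean of 0.81, and the second on 3 of 4, with a mean of 0.29. The third read -2.53, 0.05, -2.77 and -1.90, with a mean of -1.79, and alone pulled the gene below 0. Of 12 MZB1 values 8 lay above 0.

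**Figure D4:**
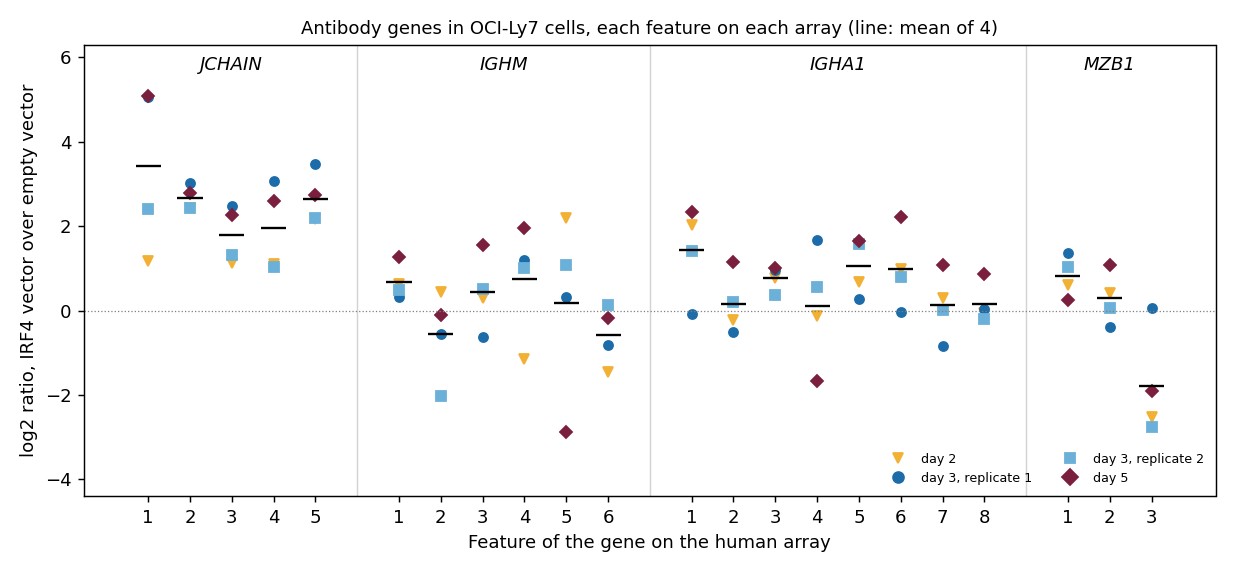
Log2 ratio of IRF4 vector over empty vector (y) for each feature of JCHAIN, IGHM, IGHA1 and MZB1 (x) in OCI-Ly7 cells; each point is 1 array, colour and shape give its day, and the line is the mean of the 4 arrays. All 20 JCHAIN points lie above 0, those of IGHM and IGHA1 lie on both sides of it, and the third MZB1 feature lies apart from the other two.

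Among the other steps of antibody production in OCI-Ly7, no listed ER gene, regulator or other immunoglobulin gene was called with arrays centred on their median. Of the 24 named ER genes of assembly 19 were higher with the IRF4 vector and 0 were called, with a median of 1.20 against -0.14 over all 4604 genes. The split of 19 and 5 was the same without centring, with centring on the named features and after quantile normalization, and ERP44 was called after the last, where 161 of 4604 genes were called (16 higher). ERP44, which retains unassembled IgM in the early secretory pathway, gave 1.94 ± 0.33 (SE, limma adjusted p = 0.104), and SSR3, a subunit of the translocon-associated complex, 1.87 ± 0.37 (SE, adjusted p = 0.124). Of 22 regulators 8 were higher and 0 were called (median -0.13), with XBP1 at 2.07 ± 0.39 (SE, limma adjusted p = 0.119) and PRDM1, the repressor that closes the B-cell programme in plasma cells, at 1.83 ± 0.34 (SE, adjusted p = 0.119). XBP1 and PRDM1 were both called after quantile normalization. Of the other immunoglobulin genes 3 were named, IGHD, IGLL1 and VPREB3, and 0 were called. IGLL1 and VPREB3, parts of the surrogate light chain system of precursor B cells, gave 0.71 (adjusted p = 0.261) and -0.77 (adjusted p = 0.257). Of the 9 plasma cell markers 5 were higher (median 1.60) and 1 was among the 5 called genes of 4604, TNFRSF17, a receptor for plasma cell survival factors (3.36 ± 0.31 SE, limma adjusted p = 0.0455). That call was lost without centring and with centring on the named features, where 1 of 4604 genes was called in each, and after quantile normalization TNFRSF17, XBP1 and PRDM1 were called. Leaving out any single human array left no gene called higher, so the TNFRSF17 call was lost each time. Of 11 B-cell markers 3 were higher and 0 called (median -0.47; CD79B was called after quantile normalization), of 16 T-cell and NK-cell markers 2 were higher (median -0.50) and of 8 myeloid markers 2 (median -0.43).

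**Figure D5:**
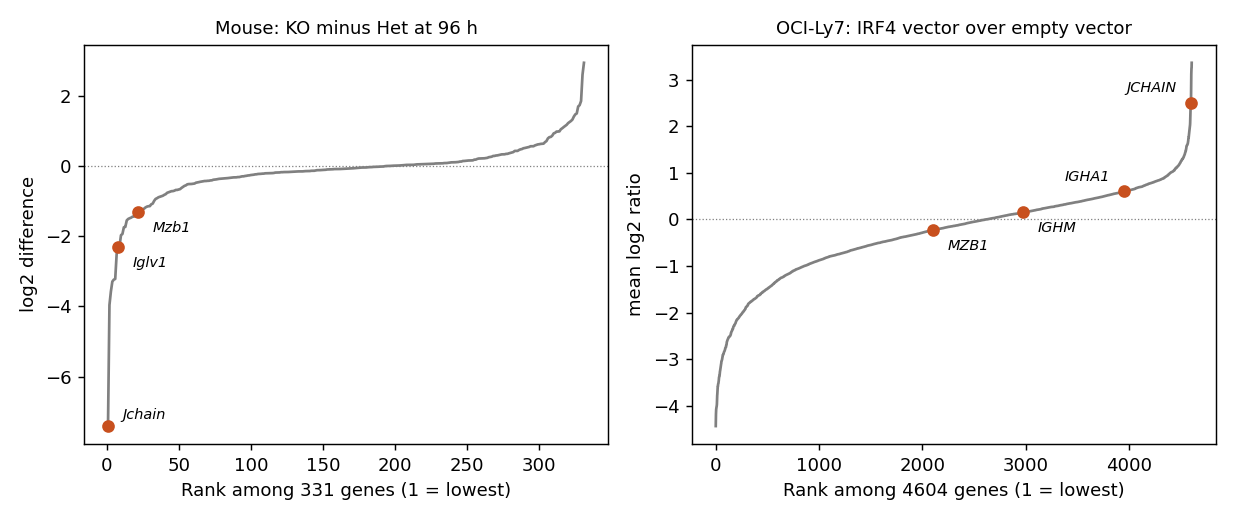
All genes in order of their log2 difference, KO minus Het at 96 h among 331 mouse genes (left) and IRF4 vector over empty vector among 4604 human genes (right); x is the rank from the lowest and y the difference. Jchain is the lowest mouse gene (-7.41), with Iglv1 at rank 8 and Mzb1 at rank 22; JCHAIN is the 8th highest human gene (2.50), and IGHA1, IGHM and MZB1 stand at 0.60, 0.15 and -0.23.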

How the data were processed

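The authors deposited 1 log2 ratio per feature and array, for 12292 mouse and 15246 human features with no missing value. How the authors scanned, corrected and normalized the arrays is not given in the sources used here, nor are log base and direction; the range of the values fits base 2, and Cy5 over Cy3 was assumed. Signals of single channels were not analysed, so the number of arrays limits the precision. Per the labels, total RNA was extracted with Trizol. Symbols came from the platform annotation, which is old: 559 mouse features had 1 symbol, 44 several and 11689 none (human 10169, 4 and 5073).

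Arrays were centred on their median, features of a gene averaged, and genes fitted with limma 3.58.1 (R 4.3.3; lmFit, eBayes, 1 mean per genotype and time, all arrays of a platform), with 2-sided p adjusted by Benjamini-Hochberg over all genes with 1 symbol; no filter was applied. The human test set the mean of the 4 arrays against 0. The fit was also run on simulated data whose spread was capped and alike in all groups, unlike that of Jchain and Mzb1 here. That run cannot show how the fit behaves with unequal spread. Alternatives covered centring, quantile normalization, array weights, subsets of arrays, single features and left-out arrays. The members and lists were chosen with earlier results of these data known. Named genes were chosen among the members, the called genes of each list or else the 2 with the smallest p, and the 3 genes most like each mouse member by Pearson's r. Some genes called in list comparisons that are not described, such as Pdia3 from 0 h to 24 h in Het, were left out. The 96 h minus 24 h comparisons were chosen after values were seen.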

Additional observations from a re-analysis of the deposited data

How the results depend on the processing

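The 49 member results were recomputed under 810 alternatives; 718 kept their direction and their side of the threshold, 28 lost the call, 29 gained one and 35 changed sign. The Jchain difference at 96 h kept its call in all 16 of its alternatives (adjusted p 2.60e-07 to 0.0101, value -9.14 to -7.26). The causes of the changes below were not tested, and "adjusted p" is limma's throughout.

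With only the groups compared in the fit, calls were lost for Jchain at 0 h (-7.44), for Iglv1 (2.03) and Mzb1 (5.47) from 0 h to 96 h in Het, and gained for Jchain at 48 h (-4.19), Mzb1 at 96 h (-1.30) and Iglv1 over the LPS times (-1.25). Array weights, whose estimation stopped before it converged, turned Iglv1 from 0 h to 24 h in Het to -0.070, ended its call from 0 h to 96 h (1.51), and gave calls for Iglv1 over the LPS times (-1.42), for Iglv1 (-0.99) and Jchain (3.02) from 0 h to 96 h in KO, and for the differing Mzb1 responses (-6.25). With these weights 102 of the 331 genes were called from 0 h to 96 h in KO, 7 higher and 95 lower. Over the LPS times 15 were called, and 13 for the differing responses. Quantile normalization gave calls for Iglv1 over the LPS times (-1.29), the differing Iglv1 responses (-2.89) and JCHAIN (2.30), and turned Jchain from 24 h to 96 h in KO (-1.36), the differing Jchain responses from 0 h (-1.55) and IGHM (-0.053). Without centring IGHM was -0.042, and centring on the named features turned Iglv1 from 24 h to 96 h in KO to 0.31.

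Without the lowest database range, which leaves a lone Het array at 0 h and another at 24 h that are assumed to vary like the other groups, calls were lost for Jchain at 0 h (-8.32) and, from 0 h to 96 h in Het, for Iglv1 (1.59) and Mzb1 (1.14). Calls were gained there for Mzb1 at 96 h (-1.30), Iglv1 over the LPS times (-1.34) and the differing Iglv1 responses (-2.49), and Mzb1 turned over the LPS times (-0.62) and from 24 h to 96 h in KO (-0.00267). With the conflicting arrays counted as Het, calls were lost for Iglv1 at 96 h (-2.30) and Jchain over the LPS times (-3.79), and Mzb1 from 0 h to 24 h in Het turned to 1.09; with them left out the Iglv1 call at 96 h was lost (-2.30). The first Iglv1 feature alone gave -0.52 between genotypes at 0 h, -0.36, -0.76 and -0.14 from 0 h to 24, 48 and 96 h in Het, and -1.60 at 96 h, with the call lost. The second gave -3.01 at 96 h, with the call lost, and 0.46 from 24 h to 96 h in KO. Single features turned IGHM (feature 2 -0.57, feature 6 -0.58) and MZB1 (feature 1 0.81, feature 2 0.29). Adjusted over all features, the Jchain call at 0 h (-7.44) was lost. JCHAIN on the day 3 arrays alone was called (2.65). Replicate numbers were not taken as pairs, since 5 of 10 same-numbered sets of deviations correlated above 0.1 (range -0.175 to 0.511). A replicate block (limma's duplicateCorrelation, correlation 0.167) made the differing Iglv1 responses pass (-3.06, adjusted p = 0.0491) and changed no other call of the results fixed in the design.

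Leaving out each array in turn gave these ranges. Between genotypes, Iglv1 ran from -0.27 to 1.58 at 0 h and from -2.46 to -2.21 at 96 h, and Mzb1 from 2.76 to 7.02 at 0 h, from -0.12 to 8.77 at 24 h and from -0.68 to 2.28 over the LPS times. In Het, Iglv1 ran from -0.47 to 1.38, from -0.10 to 1.75 and from 1.00 to 2.85 at 24, 48 and 96 h minus 0 h, and Mzb1 from -4.78 to 4.10 at 24 h and from 3.38 to 7.64 at 96 h. In KO, Jchain ran from -0.46 to 3.35, from -0.87 to 2.94 and from -0.30 to 3.51 at 24, 48 and 96 h minus 0 h and from -0.58 to 0.62 at 96 h minus 24 h, and Mzb1 from -0.00267 to 0.39 in that last step. The differing responses from 0 h ran from -3.88 to -2.03 for Iglv1, from -2.37 to 1.43 for Jchain and from -8.32 to -4.06 for Mzb1.

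Counts of called genes moved with the setting: 6 to 42 of 331 against 9 at 96 h, 0 to 57 against 6 at 0 h, 0 to 21 against 0 at 24 h, 3 to 16 against 8 over the LPS times, 2 to 172 against 85 from 0 h to 96 h in Het, 1 to 102 against 3 in KO, 15 to 115 against 100 from 24 h to 96 h in Het, and 0 to 196 of 4604 against 5 for the human arrays. Groups of 2 to 4 arrays, unequal spread between arrays and a reading of Jchain and Mzb1 by 1 feature each limit these results.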
